A study of Mus musculus with 18 samples.

Results

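The AP-1 subunit genes examined here are 8 genes, Fos, Fosb, Fosl2, Jun, Junb, Jund, Atf3 and Batf, taken by their symbols from the authors' deposited tables for both tissues. All 8 were listed among the 21830 genes of the spleen table and the 14423 genes of the bone marrow table. The RNA came from single-cell suspensions of C57BL/6 mouse tissue and was read by 3' mRNA sequencing, which tags a transcript near its poly(A) tail. In spleen, 5 libraries came from recipients of Cgas-/- marrow and 5 from recipients of dKO marrow; every recipient was a lethally irradiated dKO mouse, and spleens were taken 12 weeks after transplantation. In untransplanted bone marrow, 4 libraries were Cgas-/- and 4 were dKO. Cgas-/- cells lack the DNA sensor cGAS and carry Trex1 and Sting1, while dKO cells are Trex1-/-;Sting1gt/gt and lack both the exonuclease TREX1 and a functional STING, the receptor of cGAMP. All spleen recipients were therefore dKO, the groups differed in the donor marrow, and any cells of the recipient left in the spleen were dKO in both groups. The labels give no sex or age of the mice or the number of mice behind a library, so that a p-value here weighs a difference only against the spread of these libraries, which may be technical.

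AP-1 is a transcription factor built from pairs of bZIP proteins, which join through a leucine zipper and grip DNA with a basic region. FOS proteins pair with JUN proteins and do not form stable pairs of their own, whereas JUN proteins can also pair with each other, and ATF3 and BATF are related partners. Fos, Jun, Junb and Fosb are immediate early genes, switched on within minutes by growth factors, antigen receptors, cytokines and stress through MAP kinases, and also by the handling of tissue for single-cell suspensions. In lymphoid tissue, AP-1 acts with NFAT and IRF proteins on genes of lymphocyte activation.

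On chromosome 12, Fos lies at 85473890 to 85477273 and Batf 209 kb further along, both on the plus strand (GENCODE M21, GRCm38, the assembly of mm10). Junb (84974484 to 84978718, minus strand) and Jund (70698949 to 70700616, plus strand) are both on chromosome 8, 14.3 Mb apart. Jun is on chromosome 4 (95049034 to 95052222), Fosb on chromosome 7 (19302696 to 19310051), Fosl2 on chromosome 5 (32135801 to 32157842) and Atf3 on chromosome 1 (191170296 to 191218039). None is on chromosome 9, which carries Trex1 and Cgas. The promoter sequences of the 4 members with the largest spleen fold changes are shown, since the results below turn on these genes. Each run goes 5′ to 3′ from 150 bases before to 9 bases after the annotated start site, which is counted as 0 (RefSeq, GRCm38.p6), with the matches of the searched motifs in capitals.
Fos (chr12:85473740-85473899, plus strand): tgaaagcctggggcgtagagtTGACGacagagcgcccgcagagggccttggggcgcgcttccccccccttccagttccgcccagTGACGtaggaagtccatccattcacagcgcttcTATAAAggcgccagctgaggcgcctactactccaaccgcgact
Jun (chr4:95052213-95052372, minus strand): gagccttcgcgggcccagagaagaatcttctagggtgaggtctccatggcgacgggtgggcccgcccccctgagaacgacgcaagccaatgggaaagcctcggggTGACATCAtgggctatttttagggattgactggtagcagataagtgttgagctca
Junb (chr8:84978739-84978898, minus strand): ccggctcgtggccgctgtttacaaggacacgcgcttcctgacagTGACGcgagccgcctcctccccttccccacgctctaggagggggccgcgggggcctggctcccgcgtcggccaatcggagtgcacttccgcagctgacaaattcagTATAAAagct
Fosb (chr7:19310036-19310195, minus strand): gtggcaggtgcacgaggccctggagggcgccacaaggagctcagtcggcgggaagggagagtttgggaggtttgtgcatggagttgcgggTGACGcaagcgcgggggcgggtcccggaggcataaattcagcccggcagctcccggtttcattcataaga

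The capitals mark the core of the cAMP response element (TGACG or its complement CGTCA), a variant element known from the Jun promoter (TGACATCA) and the letters TATAAA of the TATA box, searched on both strands over 300 bases around each start site. In Fos the core occurred at -129 and -66 and TATAAA at -33, and in Fosb the core was at -60. In Jun the variant element was at -45. In Junb the core was at -106 with TATAAA at 0, the RefSeq start itself and not the usual place of a TATA box. Counted from the GENCODE start of Junb, 30 bases further on, that TATAAA begins 30 bases upstream, close to its place in Fos. Atf3, with the core at -7, and Batf, with 1 at -98, also held the core. In all, 5 of 8 members held it, against 20.9% of 32544 windows of the same length from all genes. TGACATCA was in 1 of 8 members and 3.37% of all windows, and TATAAA in 2 of 8 and 13.6%. Neither the full cAMP response element (TGACGTCA, which contains the core on both strands, 1.8% of all windows), the AP-1 element itself (TGANTCA, 7.79%) nor the CArG box bound by serum response factor (1.64%) matched in any of the 8 windows, and the known serum response element of Fos lies upstream of its window. No motif matched in the windows of Fosl2 and Jund. The RefSeq start lay at the GENCODE start of the gene in Fos and Jun, 30 bases before it in Junb and 1210 before it in Jund, and 6 bases after it in Fosb, 51 in Batf, 671 in Fosl2 and 34.7 kb in Atf3, so that the windows and the count of 5 of 8 depend on the start chosen. The matches are letters in these windows and show no binding.

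The targeted genes were read first. Trex1 was 6.55-fold higher in spleens with Cgas-/- marrow (log2 fold change 2.71 ± 0.199, standard error as throughout, DESeq2 adjusted p = 8.48e-39) and 2.73-fold higher in Cgas-/- marrow (adjusted p = 7.93e-13) in the authors' deposited tables. Cgas, listed for spleen under its older symbol, was at -0.92 ± 0.217 in spleen (adjusted p = 0.0176) and -1.13 ± 0.155 in bone marrow (adjusted p = 6.99e-10), per the authors' deposited tables. Sting1, which carries a point mutation in dKO mice that a count does not show, was at -0.02 ± 0.0751 and -0.13 ± 0.176 in the same authors' deposited tables. The 3' tags may lie outside the altered parts of these genes, so what is left of a level does not gauge the loss of the protein. Markers of the labelled tissues were present, though in both tissues. The 10 B cell markers had means of 186 to 5789 normalized counts in spleen and 134 to 947 in bone marrow. The 12 neutrophil markers had 1936 to 406050 in bone marrow and 20.7 to 12522 in spleen, in the authors' deposited tables, which were normalized separately. A mean normalized count is the authors' mean over all libraries of a comparison, so the depth and the value of each library are not known here, and fold changes are Cgas-/- over dKO donor marrow or Cgas-/- over dKO marrow.

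In spleen, 1 of the 8 AP-1 subunit genes was called by DESeq2 (adjusted p under 0.05) in the authors' deposited table. Fos, whose protein is the partner of JUN proteins, rose 2.12-fold in recipients of Cgas-/- marrow. Jun, Junb and Fosb were next in size, at 1.57-fold, 1.42-fold and 1.85-fold in the authors' deposited table, without passing over all 21830 genes. Among all genes of that table, 0.055% were called higher. All 8 members had fold changes above 1, with a median log2 fold change of 0.40, against a median of 0.01 over the 11118 genes with a mean of at least 20 normalized counts, of which 52% lay above 0. Without adjustment, 5 of 8 members were higher and 0 lower at p under 0.05, where 1.17% of all genes were higher by the authors' deposited table.

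For Fos, the authors' deposited table gave a mean of 281 normalized counts in spleen. With that mean and the fold change, and equal group sizes, the implied group means are 381 with Cgas-/- marrow and 179.6 with dKO marrow. The log2 fold change was 1.09 ± 0.158, with a 95% interval of 0.78 to 1.40, or 1.71-fold to 2.63-fold, and the DESeq2 adjusted p was 8.30e-09 in the authors' deposited table. Fos ranked 15th of all genes by p, and 99.9% of genes with a mean of at least 20 had a smaller fold change. Of the 12 genes called higher in spleen, 11 lay on chromosome 9 and Fos was the other. Of the 17 called lower, 6 lay on chromosome 9, 5 on the Y chromosome and 6 elsewhere.

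**Figure D1:**
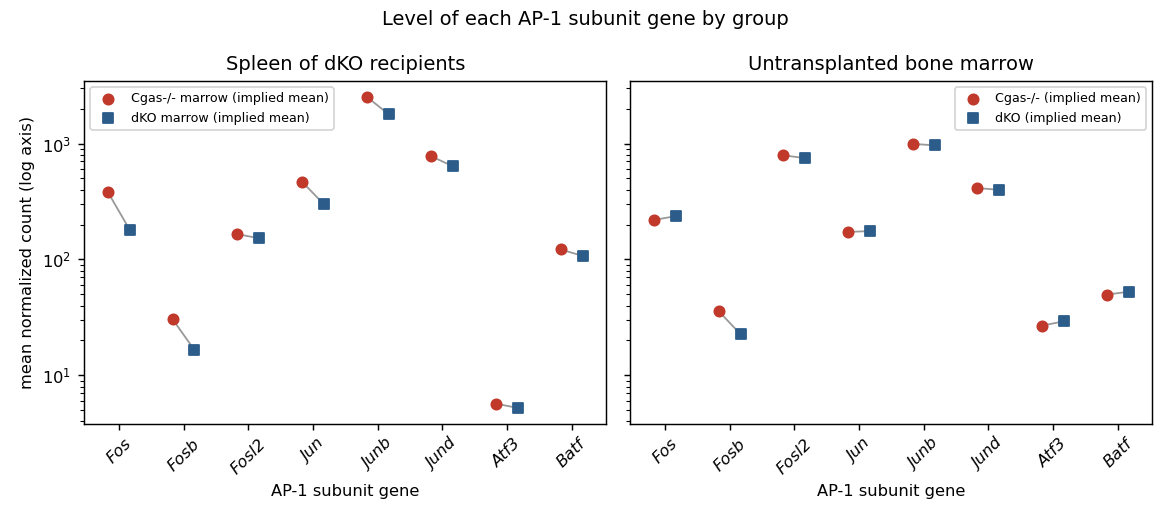
Approximate mean normalized count of each AP-1 subunit gene (log axis) in the Cgas-/- group (red circles) and the dKO group (blue squares), computed from the authors' mean and fold change, with no spread per library. In spleen the red circle lies above the blue square for all 8 genes, most for Fos (381 and 179.6), while in bone marrow the pairs lie close together except for Fosb (35.8 and 22.6).

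The other FOS family members differed in mean level. Fosb, a FOS protein gene with an alternatively spliced short form best known from the brain, had a mean of 23.5 normalized counts in the authors' deposited spleen table. Its implied means are 30.6 with Cgas-/- marrow and 16.5 with dKO marrow, and the log2 fold change was 0.89 ± 0.348 (unadjusted p = 0.0107, DESeq2 adjusted p = 1.0). That fold change is close in size to that of Fos, and its 95% interval, 0.21 to 1.57, is wider. Fosl2, which encodes the FOS-related protein FRA-2, had a mean of 159 in the authors' deposited table and a log2 fold change of 0.12 ± 0.225, with an interval of -0.32 to 0.56. Fosl1, which encodes FRA-1, was listed for neither tissue.

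All 3 JUN family genes had intervals above 0 in spleen. Junb, whose protein can restrain JUN and has its own role in lymphocytes, was the member with the highest mean, 2166 normalized counts in the authors' deposited table. Counts of 3' tags do not scale with transcript length, so this order of means is an order of tags per gene. The implied means of Junb are 2541 with Cgas-/- marrow and 1791 with dKO marrow, and its log2 fold change in the authors' deposited table was 0.50 ± 0.128 (unadjusted p = 8.43e-05, DESeq2 adjusted p = 0.0613). Jun, which encodes the main partner of FOS, had implied means of 470.0 and 299 in the same order. Its log2 fold change in the authors' deposited table was 0.65 ± 0.170 (unadjusted p = 1.21e-04, DESeq2 adjusted p = 0.0825). Adjusted over the 11118 genes with a mean of at least 20 alone, Junb (adjusted p = 0.0347) and Jun (0.0464) passed beside Fos, 3 of 7 members with such a mean, where 0.126% of those genes were called higher. Jund, which is expressed more steadily in resting cells, was at 0.29 ± 0.139 in the authors' deposited table (unadjusted p = 0.0357, DESeq2 adjusted p = 1.0), with implied means of 776 and 634.

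Neither gene of the more distant partners was called. Batf, which pairs with JUN proteins and IRF4 or IRF8 in T and B cells, had 0.19 ± 0.174 on the log2 scale and a mean of 115 normalized counts in the authors' deposited table. Atf3, a stress-induced member that often represses, had a mean of only 5.46 in the authors' deposited table, and its interval of -1.02 to 1.27 leaves its direction undetermined at this depth. By mean normalized count the order in spleen was Junb, Jund, Jun, Fos, Fosl2, Batf, Fosb and Atf3. Whether fold changes of neighbouring members differ from each other was not tested, since genes measured in the same libraries share their errors and values per library were not used here.

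**Figure D2:**
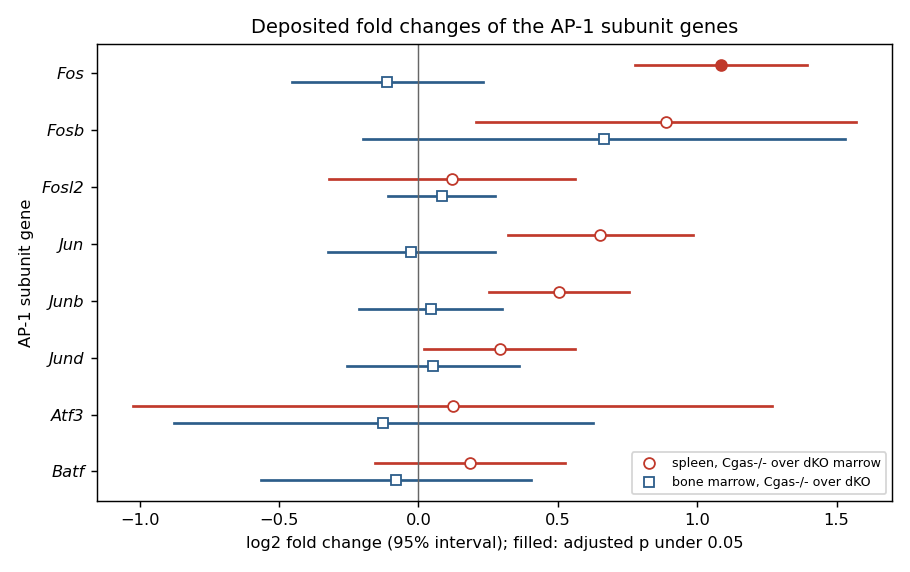
Log2 fold change of each AP-1 subunit gene with its 95% interval, for spleen (red circles, Cgas-/- over dKO marrow recipients) and bone marrow (blue squares, Cgas-/- over dKO), filled where the DESeq2 adjusted p is under 0.05. Only Fos in spleen is filled, and the spleen intervals of Fos, Fosb, Jun, Junb and Jund lie above 0 while all 8 bone marrow intervals include 0.

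In untransplanted bone marrow, none of the 8 members passed the test in the authors' deposited table. By DESeq2 there were 0 calls at an adjusted p of 0.05 and 0 at an unadjusted p under 0.05, where 0.173% of all genes were called higher, 0.361% lower, and 8.85% had an unadjusted p under 0.05. The log2 fold changes were above 0 for 4 members and below 0 for 4, with a median of 0.01, against -0.00287 over the 12045 genes with a mean of at least 20, of which 49.3% lay above 0. All 8 members had a mean of at least 20 in this tissue, and their standard errors, 0.0980 to 0.442, were of the same order as in spleen (0.128 to 0.585).

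Fos had a mean of 228 normalized counts in the authors' deposited bone marrow table, with implied means of 219 in Cgas-/- and 237 in dKO marrow. Per the authors' deposited table, its log2 fold change there was -0.11 ± 0.175 (DESeq2 adjusted p = 0.944), and the 95% interval, -0.46 to 0.23, did not reach the spleen value of 1.09. Jun was at -0.03 ± 0.153, with implied means of 173 and 176 in the same order, and Junb at 0.04 ± 0.131, with 994 and 964, in the authors' deposited table. Fosb had the largest value, 0.67 ± 0.442 (unadjusted p = 0.132) with a mean of 29.2 in the authors' deposited table, so its interval of -0.20 to 1.53 includes 0. The other 4, Fosl2, Jund, Batf and Atf3, lay between -0.13 and 0.08 in the authors' deposited table. Junb had the highest mean here too, 979 normalized counts, followed by Fosl2, Jund, Fos, Jun, Batf, Fosb and Atf3. Fosl2, the second in bone marrow at 769.9 normalized counts, was the fifth in spleen.

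**Figure D3:**
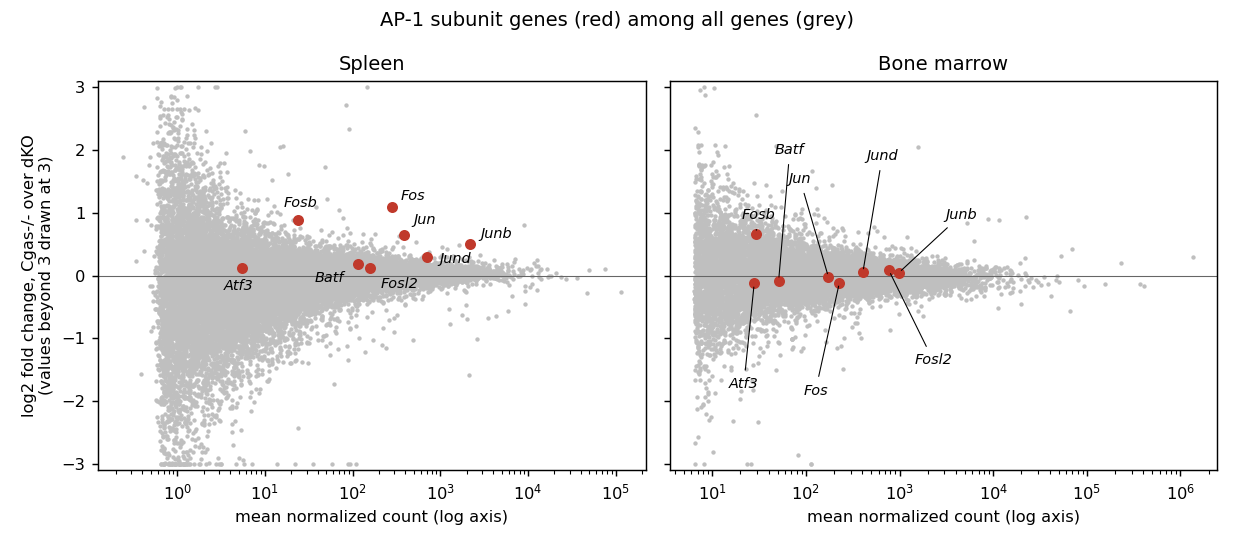
Log2 fold change (Cgas-/- over dKO) against the mean normalized count (log axis) for every gene (grey) and the AP-1 subunit genes (red), in spleen on the left and bone marrow on the right. In spleen Fos, Jun and Junb lie at the upper edge of genes with a like mean, at 1.09, 0.65 and 0.50, and in bone marrow all members but Fosb lie between -0.13 and 0.08.

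The difference between the tissues was tested directly by subtracting the log2 fold change of bone marrow from that of spleen, for 13776 genes listed under the same symbol in both tables. For Fos it was 1.20 ± 0.236, with an interval of 0.74 to 1.66 (normal test of the difference, two-sided, Benjamini-Hochberg adjusted p = 0.00101), the 5th smallest p of all genes. It was the 1 call among the 8 members, and 0.0436% of all genes were called with a higher spleen value. Jun differed by 0.68 ± 0.229 (unadjusted p = 0.00302, adjusted p = 0.586) and Junb by 0.46 ± 0.183 (unadjusted p = 0.0118, adjusted p = 0.889), and neither passed. Fosb, with 0.89 in spleen and 0.67 in bone marrow, differed by 0.22 ± 0.562. All 8 differences were above 0, with a median of 0.26 against -0.01 over all genes. Spleen and bone marrow also differed in transplantation and irradiation, so tissue and treatment cannot be told apart here. The comparisons further listed some genes under different symbols, such as Cgas. Their lowest means differed too, at 0.239 normalized counts in spleen and 6.46 in bone marrow. The part of annotation and gene filter in these differences was not tested.

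**Figure D4:**
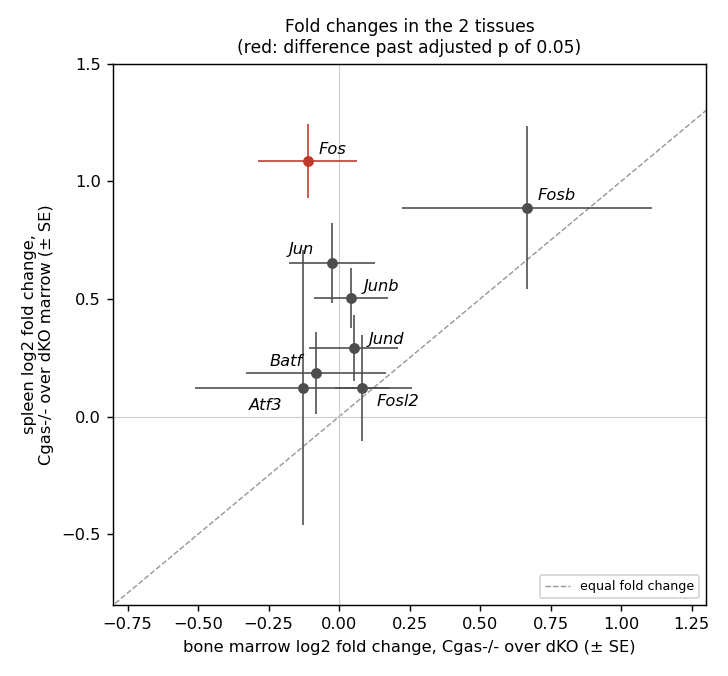
Spleen against bone marrow log2 fold change of the AP-1 subunit genes, each point with its standard error in both directions, and a dashed line of equal fold change. Fos (red, 1.09 in spleen and -0.11 in bone marrow) is the member whose distance from the line passed the test, while Fosb (0.89 and 0.67) lies near the line.

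By the distance over both log2 fold changes, among 8703 other genes with means of at least 20 and standard errors of at most 0.3 in both tables, the genes most like Fos were Tmem181b-ps, Aste1 and Rps27. Tmem181b-ps had 0.72 in spleen and -0.29 in bone marrow, Aste1 0.68 and -0.19, and Rps27 0.65 and -0.04, in the authors' deposited tables, at distances of 0.408, 0.417 and 0.444 from Fos. None of them passed the DESeq2 test in spleen in the authors' deposited table. Aste1 lies on chromosome 9, which also carries Trex1 and Cgas. Mean normalized counts in spleen and bone marrow were 43.3 and 169 for Tmem181b-ps, 94.4 and 59.8 for Aste1, and 77.1 and 7276 for Rps27. Whether read assignment has a part in the wide gap of Rps27, or in its likeness to Fos, was not tested. The likeness rests on 2 comparisons only, and the nearest gene lay 0.37 below Fos on the spleen scale.

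Genes that act before, beside and after AP-1 were read in lists. In the MAP kinase cascade that drives Fos and Jun, 18 of 18 genes were listed and none passed in spleen, with a median log2 fold change of 0.03 in the authors' deposited table. Map3k8, the kinase that carries Toll-like and TNF receptor signals to ERK, had the smallest p there, at 0.46 ± 0.131 (unadjusted p = 4.84e-04, DESeq2 adjusted p = 0.286), and Mapk9, which encodes JNK2, was at 0.14 ± 0.0933, in the authors' deposited table. The bone marrow median was -0.06, and Rps6ka1 (-0.20 ± 0.0831) and Map2k3 (0.18 ± 0.0851) had the smallest p values in the authors' deposited table, with no call among the 18. These kinases are switched on by phosphorylation, so their RNA says nothing of their activity.

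Of 13 factors that bind the Fos and Jun promoters, none passed in either tissue. Srf, the serum response factor, was at 0.43 ± 0.232 in spleen and 0.88 ± 0.489 in bone marrow in the authors' deposited tables. Stat3 and Creb1 had -0.10 ± 0.0716 and -0.09 ± 0.0877 in spleen, where Creb1 encodes the factor that binds the cAMP response element, and the bone marrow values of Creb1 and Atf1 were 0.19 ± 0.0857 and -0.16 ± 0.108, in the authors' deposited tables. The list's median was 0.03 in spleen and -0.01 in bone marrow.

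Feedback genes, which switch the MAP kinases off or destroy AU-rich messenger RNAs, held 1 call in each tissue, where 0.055% of all genes in spleen and 0.173% in bone marrow were called higher. Of the 16 listed in spleen, 14 lay above 0 with a median of 0.23, and of the 15 listed in bone marrow, 13 did with a median of 0.20 (the authors' deposited tables), where 52% of genes with a mean of at least 20 in spleen and 49.3% in bone marrow lay above 0. Dusp7, a phosphatase of ERK, was that call in both, at 1.05 ± 0.169 in spleen (DESeq2 adjusted p = 6.47e-07) and 1.40 ± 0.211 in bone marrow (adjusted p = 4.41e-08) in the authors' deposited tables, and it lies 2.68 Mb from Trex1 on chromosome 9. Dusp2, a phosphatase of activated lymphocytes, had 0.32 ± 0.0851 in spleen (unadjusted p = 1.42e-04, DESeq2 adjusted p = 0.0937), and Zfp36, whose protein tristetraprolin binds AU-rich elements, 0.42 ± 0.136 (unadjusted p = 0.00202), in the authors' deposited table. The smallest p values after Dusp7 in bone marrow belonged to Tob1 (0.35 ± 0.164) and Zfp36l1 (0.20 ± 0.107) in the authors' deposited table. Of the feedback genes in spleen, 6 of 16 had an unadjusted p under 0.05 and were higher, where 1.17% of all genes were, and 0 were lower.

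The AU-rich element is a feature of some members themselves, and the 3' end is also where the tags of this assay arise. Fos and Fosl2 hold the nonamer TTATTTATT in their 3' untranslated regions (GENCODE M21 transcripts), 2 of 8 members against 7.02% of 20945 genes. The 30 bases around it are shown, with ATTTA pentamers in capitals.
Fos, bases 645 to 674 after the stop codon: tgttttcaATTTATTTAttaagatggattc
Fosl2, bases 3682 to 3711 after the stop codon: ATTTAttttattATTTAttttaaatgttta

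Fos and Jun had 4 ATTTA pentamers each, Fosl2 8, Atf3 3, Junb 2, Fosb and Jund 1 each and Batf 0, while the median gene had 1. Per kilobase of untranslated region this was 4.91 in Fos, 4.12 in Junb, 3.24 in Jun, 2.53 in Atf3, 1.88 in Jund, 1.72 in Fosl2, 0.466 in Fosb and 0 in Batf, with a median of 1.15 over all genes. Fosb, second by spleen fold change, had fewer per kilobase than 6 of the other members. Its place is not firm, with a mean of 23.5 normalized counts and an interval of 0.21 to 1.57. Fos and Fosl2, which share the nonamer, had spleen log2 fold changes of 1.09 and 0.12 in the authors' deposited table. Whether AU-rich elements have a part in these fold changes was not tested.

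Other bZIP genes of the AP-1 family did not pass in either tissue. Of 11 listed in spleen, 3 lay above 0, with a median of -0.05 in the authors' deposited table, against 8 of 8 among the AP-1 subunit genes above. Of all genes with a mean of at least 20, 52% lay above 0 in spleen and 49.3% in bone marrow. Members and lists were chosen with earlier results of these data known, so the contrast between them is not a test. Atf4, the factor of the integrated stress response, had 0.20 ± 0.0957 (unadjusted p = 0.0369), Atf7 -0.14 ± 0.174 and Mafk, a small MAF protein gene, 0.15 ± 0.176 in the authors' deposited spleen table. In bone marrow, 7 of 9 lay above 0 with a median of 0.10, where Mafk had 0.37 ± 0.179 and Atf2 0.10 ± 0.110 in the authors' deposited table. Genes of AP-1 protein turnover had a median of -0.05 in spleen with no call, where Itch, a ubiquitin ligase of JUN proteins, was at -0.19 ± 0.150, Cul4a at -0.16 ± 0.137 and Trib1 at -0.10 ± 0.112 in the authors' deposited table. Trib1, a pseudokinase that serves the COP1 ubiquitin ligase, fell in Cgas-/- marrow, at -0.39 ± 0.0979 (DESeq2 adjusted p = 0.0237). It was the 1 call of 8 in the authors' deposited table, where 0.361% of all genes were called lower. The next in bone marrow were Itch (0.12 ± 0.127) and Cul4a (0.10 ± 0.128) in the authors' deposited table.

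Partners of AP-1 in lymphocytes had no call. Ets1 (0.13 ± 0.105), Irf8 (-0.06 ± 0.050) and Irf4 (0.12 ± 0.109) led by p in spleen, where the median was 0.06, in the authors' deposited table. The same 3 led in bone marrow, where Irf8 had 0.23 ± 0.0741 (unadjusted p = 0.00228, DESeq2 adjusted p = 0.173), Ets1 0.24 ± 0.104 and Irf4 0.24 ± 0.171 in the authors' deposited table. Known target genes of AP-1 had no call either, with medians of 0.06 in spleen over 13 genes and 0.11 in bone marrow over 11. Only 7 of the 13 and 9 of the 11 had a mean of at least 20. Over all genes, 0.055% in spleen and 0.173% in bone marrow were called higher, so the lack of a call in so short a list says little. In spleen the intermediate filament gene Vim had 0.17 ± 0.0741 (unadjusted p = 0.0222), the cyclin gene Ccnd1 -0.28 ± 0.188 and the early activation marker Cd69 0.18 ± 0.147 in the authors' deposited table. The bone marrow values were -0.15 ± 0.0615 for Vim, 0.33 ± 0.148 for Ccnd1 and 0.28 ± 0.154 for Tnf in the authors' deposited table.

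Other immediate early genes had values of a like direction in spleen. Of 19, 17 lay above 0 with a median of 0.16, and none passed in the authors' deposited table, with 7 higher and 0 lower at an unadjusted p under 0.05, where 1.17% of all genes were higher. Egr1, a zinc finger factor induced through the same serum response elements as Fos, had 0.53 ± 0.135 (unadjusted p = 9.25e-05, DESeq2 adjusted p = 0.0652), Ier2 0.34 ± 0.106 (unadjusted p = 0.00153) and Egr3 0.43 ± 0.149 (unadjusted p = 0.00395) in the authors' deposited table. In bone marrow 10 of 16 lay above 0, none passed, and Klf2 (0.26 ± 0.0995), Nfkbia (-0.23 ± 0.0897) and Myc (0.49 ± 0.214) had the smallest p values in the authors' deposited table. Heat shock chaperone genes, which tissue handling also induces, all lay below 0 in spleen (10 of 10, median -0.31, no call) in the authors' deposited table. Their spread there was wide, with Hspa1b at -0.85 ± 1.06, Hsp90aa1 at -0.37 ± 0.330 and Hspd1 at -0.21 ± 0.168 in the authors' deposited table. Among the 7 listed in bone marrow, 6 lay below 0 without a call, led by Hspa8 (-0.24 ± 0.0689, unadjusted p = 5.48e-04, DESeq2 adjusted p = 0.0790), Hsph1 (-0.31 ± 0.134) and Hspe1 (-0.18 ± 0.0888) in the authors' deposited table. The time from tissue to lysis is not given in the labels, and its part in these values was not tested.

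**Figure D5:**
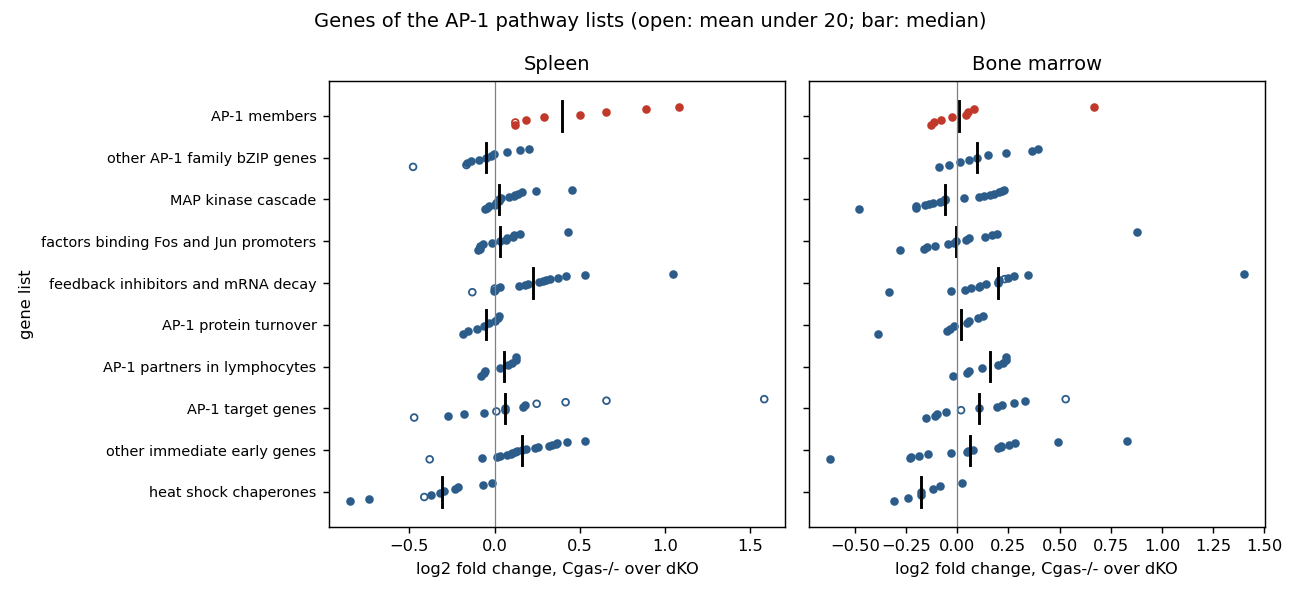
Log2 fold change (Cgas-/- over dKO) of every listed gene of the AP-1 subunit genes (red) and of 9 related lists (blue), in spleen on the left and bone marrow on the right, with a black bar at each median and open circles for means under 20. The AP-1 subunit genes have the highest median in spleen, 0.40, against 0.23 for feedback genes and -0.31 for heat shock chaperones, and a median of 0.01 in bone marrow. Members and lists were chosen with earlier results of these data known, so this order is not a test.

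Markers of blood cell types had no call in spleen in the authors' deposited table, and several lists lay mostly on one side of 0. The 12 erythroid markers all lay below 0 in spleen (median -0.69, range -1.39 to -0.39), and 11 of 12 neutrophil markers did (median -0.51), while 9 of 10 T cell markers lay above 0 (median 0.10), in the authors' deposited table. B cell markers lay at a median of 0.00210 with 5 of 10 on each side, and monocyte markers at 0.03, while 1 of 10 NK cell markers (median -0.18), 1 of 10 red pulp macrophage markers (-0.18), 1 of 7 stromal markers (-0.61), 2 of 8 dendritic cell markers (-0.11) and 6 of 8 platelet markers (0.09) lay above 0 in the authors' deposited table. In bulk libraries, fewer cells of a type and less RNA per cell cannot be told apart. The 4 Y-linked genes listed, Ddx3y, Eif2s3y, Uty and Kdm5d, were lower in spleens with Cgas-/- marrow by -4.76 to -5.38 on the log2 scale, all past the DESeq2 test, and Xist was at 0.45 ± 0.126 (adjusted p = 0.192) in the authors' deposited table. None of these 4 was listed for bone marrow, where Xist had a mean of 3563 normalized counts and -0.10 ± 1.65 in the authors' deposited table, a standard error far above the median of 0.166 over genes with a mean of at least 20. In that tissue, where the AP-1 subunit genes had no call, all 12 erythroid markers lay above 0 (median 0.49, 1 call) and all 10 monocyte markers below 0 (median -0.37, 5 calls) in the authors' deposited table, where 0.173% of all genes were called higher and 0.361% lower. In the same tissue all 8 dendritic cell markers lay above 0 (median 0.20, 1 call), 5 of 8 platelet markers did (0.06, 1 call higher), 8 of 10 NK cell markers (0.17), 7 of 10 B cell markers (0.05), 4 of 10 T cell markers (-0.10), 5 of 10 red pulp macrophage markers (-0.00212), 4 of 7 stromal markers (0.03) and 1 of 12 neutrophil markers (-0.12), the last 6 without a call, in the authors' deposited table. The spleen groups thus differed in Y-linked RNA as well as in donor marrow. Without values per library, these cannot be told apart in the Fos value. The part of cell makeup in the Fos value was not tested.

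Overlapping genes limit some members. Fos, Fosb, Fosl2 and Batf overlap no other annotated gene, while Jun overlaps the antisense gene Junos, Jund an antisense gene, Atf3 a small RNA gene and Junb the erythroid-abundant peroxidase gene Prdx2, by 351 bases at their 3' ends on opposite strands. Whether the authors counted by strand is not given in the sources used here, so reads of Junb and Prdx2, and of Jun and Junos, cannot be told apart with certainty. Prdx2 had -0.26 ± 0.137 in spleen and 0.17 ± 0.0967 in bone marrow, and Junos 0.38 ± 0.462 with a mean of 9.99 normalized counts in spleen, in the authors' deposited tables.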

How the data were processed

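Libraries were made from total RNA of single-cell suspensions with the QuantSeq forward kit, per the labels' protocols. Per the submitters' processing notes, the tools and build were STAR 2.6.1, bcl2fastq 1.8.4, DESeq2 (no version), Partek and mm10. How reads were counted, with which annotation, strand setting and gene filter, is not given in the sources used here. Both tables hold comparisons made by the authors. Their mean normalized count is a signal over all libraries of a comparison, deposited by the authors. Per the file headers, each gene also has the authors' log2 fold change with a standard error, a Wald score, a ranking score, a p-value and a Benjamini-Hochberg adjusted p-value. The Wald score, p-value and adjusted p-value were recomputed from the deposited values and matched. With tables of means and fold changes only, no depth and no count test are given, and no replicate could be left out.

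The 8 members and all gene lists were chosen with earlier results of these data known. Genes named are the members, the targeted genes, the 3 genes of each pathway list with the smallest p and a mean of at least 20 in each tissue, every call of such a list (threshold 0.05), and the 3 genes nearest to Fos; some genes that this rule names are not reported here. The Y-linked genes come from such a list, and Prdx2 and Junos were named after their overlap was seen. Symbols were matched directly or by a RefSeq synonym. Implied group means assume equal groups and are the mean times 2 split by the fold change. Intervals (95%) are the log2 fold change ± 1.96 standard errors. The difference between tissues was divided by the root of the summed squared standard errors, with a two-sided normal p adjusted over 13776 genes. The comparisons share no library, and the tables were normalized separately. The test of the difference between tissues was tried on simulated fold changes with normal errors of the deposited size, which the test itself assumes. The Benjamini-Hochberg adjustment was checked on simulated p-values. The other steps were not tested in this way. All 8 promoters were found in the RefSeq table. The software was numpy 2.4.6, pandas 2.3.3, matplotlib 3.10.9 and scipy 1.17.1 under Python 3.11.15.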

Additional observations from a re-analysis of the deposited data

Results flagged for a closer look

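The log2 fold change of Fos differed between the comparisons by the test of the difference itself. In spleen it compares Cgas-/- with dKO donor marrow in dKO recipients, and in bone marrow untransplanted Cgas-/- with dKO. The spleen minus bone marrow log2 fold change was 1.20 ± 0.236 (two-sided normal test, Benjamini-Hochberg adjusted p = 0.00101), from 1.09 in spleen and -0.11 in bone marrow. Its adjusted p ranged from 7.28e-04 to 0.00504 over the 4 alternatives. No other member was past the threshold for this difference. The comparisons also differed in transplantation and irradiation, in some gene symbols and in the lowest mean listed. The spleen groups differed in Y-linked genes. Tissue cannot be told apart from these.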

How the results depend on the processing

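The alternatives reuse the deposited fold changes and standard errors. Apart from a small shift to the median, they vary no counting, normalization or library. The direction of Fos was therefore fixed in advance, and that no value reversed is no sign of robustness to processing. The call of Fos in spleen held under all 6 alternatives, with a Wald test adjusted p between 9.54e-11 and 7.80e-05. Its call for the difference between tissues held under all 4. The count of members called in spleen, 1 as deposited, was 3 with adjustment over genes with a mean of at least 20 (Fos, Jun and Junb), 2 with a mean of at least 100 (Fos and Junb) and 3 with the Wald score divided by its robust standard deviation of 0.919 (Fos, Jun and Junb). Over all genes the calls in these settings numbered 29, 15 and 34, against 29 as deposited. The first 2 adjust over fewer genes and the third narrows the null. The count stayed at 1 with Bonferroni adjustment, with fold changes centred on the median, and in the test against an absolute change of 0.25. In bone marrow the count was 0 under all 6 alternatives. Of the values of single members under these alternatives, 5 in spleen gained a call, those of Jun (2 settings) and Junb (3 settings), 40 in spleen, 45 in bone marrow and 31 for the difference kept their direction and side of the threshold, and none reversed. The alternatives for each member's difference were chosen after seeing the data.

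No paired analysis was possible because the deposited tables hold no values per library, and for the same reason no replicate was left out, so whether 1 library decides the value of Fos is not known here. Depth limits Atf3, with a mean of 5.46 in spleen, and Fosb, with 23.5.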
